A study of Mus musculus with 10 samples.

Results

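The collagen genes are described here in mouse liver: every gene whose symbol is Col, a number, the letter a and a number. In all, 44 of the 22180 genes measured by a cluster of probes with a single symbol fit this rule. Of these, 11 encode chains of fibrillar collagens, 8 chains of basement membrane collagens and 25 chains of other types. The rule chose the genes by name only, not by measured values. The cluster that stands for each gene was the one with the highest mean over the livers. The values are log2 expression values, so that a difference of 1 is a doubling.

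The livers came from 4-week-old male mice that all carried Rosa26-rtTA, a doxycycline-dependent transcription factor placed in a broadly active locus. The 4 control livers had rtTA alone. In 3 livers rtTA was combined with SOD2 shRNA 1 and in 3 with SOD2 shRNA 2, hairpins against the mitochondrial superoxide dismutase. Pregnant dams were fed chow with doxycycline at 625 mg/kg from embryonic day 0 to 12.5, which is long before the livers were taken. The 6 hairpin livers are called adapted, as in the labels. The controls were littermates: the cohort of shRNA 2 gave 3 of them and that of shRNA 1 gave 1. Which control belongs to which cohort was not assigned, so that hairpin line and cohort cannot be told apart. The labels do not say that each sample is a separate animal, so a p-value here is set against the spread of these samples, which may be technical.

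Collagens are secreted proteins whose chains wind around each other in a helix built on a repeat with glycine at regular steps. Fibrillar collagens form the tensile fibres of portal tracts and vessel walls, and in scarring liver they come largely from hepatic stellate cells and portal fibroblasts. Type IV collagen forms the sheet-like network of basement membranes, which in the liver sinusoid is sparse. Type XVIII collagen, the precursor of endostatin, is made in quantity by hepatocytes themselves, and type VI collagen forms beaded filaments between the fibres and the cells.

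Sod2 lay between log2 10.24 and 10.49 in all 10 livers, with a difference between adapted and control livers of -0.01 (standard error 0.08, limma adjusted p = 0.980). These arrays were taken after the doxycycline window, so Sod2 does not check the group labels. All 8 hepatocyte markers and all 11 measured markers of quiescent stellate cells lay above the array's median in every liver. Array medians were 4.15 in control replicate 1, 4.17 in control replicate 4 and 4.06 to 4.11 in the other 8 livers. Control replicate 4 and shRNA 2 replicate 3 had the lowest array quality weights, 0.65 and 0.64.

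No collagen gene passed the test in any comparison. The files hold no detection call, so the array's own median serves as a yardstick of level. It was exceeded in all 10 livers by 28 of the 44 collagen genes and in none by 8: Col4a4, Col4a6, Col6a5, Col9a1, Col10a1, Col11a1, Col19a1 and Col28a1. The other 8 lay on either side of it. Of the 44 genes, 34 passed the filter on low values (a mean of at least log2 3.98) and were tested, which were 10 fibrillar, 6 basement membrane and 18 other. The 10 below it were Col6a4, Col12a1 and the 8 just named, and their differences between adapted and control livers ran from -0.15 for Col4a6 to 0.13 for Col4a4.

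In adapted against control livers 0 of the 34 tested collagen genes passed an adjusted p of 0.05 in limma, where 0.00751% of all 13308 genes tested did. The smallest adjusted p among them was 0.513. At an unadjusted p under 0.05 there was 1 of 34, Col6a2, against 8.37% of all genes tested. Adapted and control livers overlapped for all 34, and 1.88% of all genes tested had groups without overlap. The median difference was -0.02, beside 0.01 over all genes tested, and single genes lay between -0.30 (Col9a2) and 0.27 (Col6a2). Of the 34 means, 22 were lower in adapted livers, against 48% of all genes tested. That split depended on the scaling: 16 were lower after centring each array on its median and 18 after quantile normalization. Centring moved all genes alike: the median over all genes tested went from 0.0058 to 0.037 and that of the collagen genes from -0.024 to 0.0073, so that the collagen median stayed below that of all genes. Leaving out 1 liver took the collagen median from -0.0066 (without control replicate 1) to -0.11 (without control replicate 3). The count of lower means was 18 of the 33 genes that passed the filter without control replicate 1, and 19 of 34 without control replicate 4. It was 25 of 34 without control replicate 2, 24 of 34 without control replicate 3 and 24 of 33 without shRNA 2 replicate 3. Leaving out any other liver gave 22 or 23. The 95% interval of the difference lay within 0.5 of 0 on the log2 scale, a change of 1.41-fold either way, for 29 of the 34, and for 88.2% of all genes tested. The 5 with wider bounds were Col4a3, Col8a2, Col9a2, Col20a1 and Col23a1. These bounds are not adjusted for the number of genes, and a liver with fewer collagen-making cells cannot be told apart from one with less collagen RNA per cell.

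**Figure D1:**
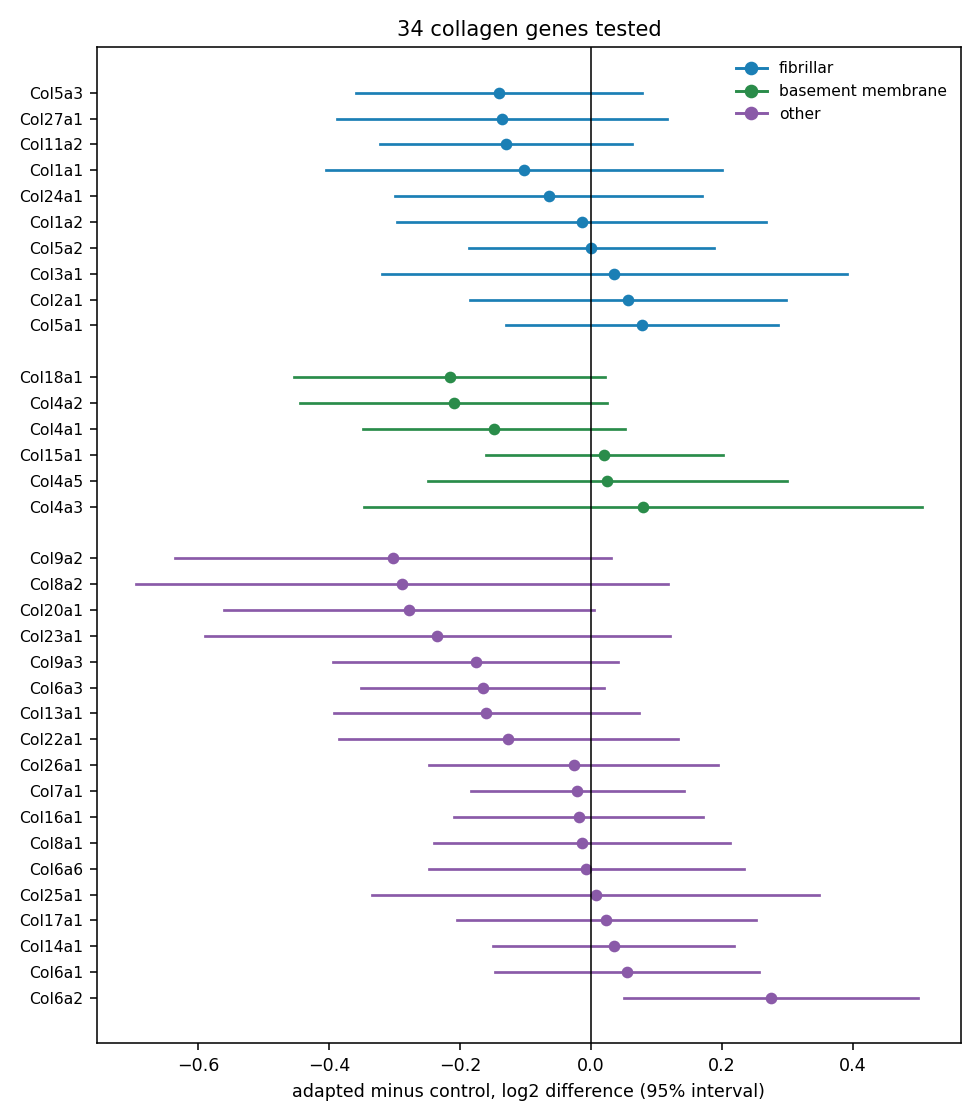
Difference between adapted and control livers for each of the 34 collagen genes tested (x axis, log2 units; points, limma estimate; lines, 95% interval), with fibrillar, basement membrane and other types apart. The interval of Col6a2 alone lies clear of 0, and its adjusted p was 0.513.

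Among the fibrillar chains the main genes of liver scar matrix overlapped between adapted and control livers, and none passed the test. Col1a1, one chain of type I collagen, was at log2 7.09, 7.0, 6.88 and 7.63 in the 4 controls, at 7.05, 6.94 and 6.82 in shRNA 1 livers and at 7.22, 6.94 and 7.30 in shRNA 2 livers. The highest value was that of a control, replicate 4, and the groups overlapped. Adapted minus control was -0.10 (standard error 0.14, 95% interval -0.40 to 0.20, adjusted p = 0.891). Without control replicate 4 the difference was 0.06, so that its sign rested on that liver.

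Col1a2, the partner chain of type I, was at 6.69, 6.64, 6.65 and 7.20 in controls, at 6.96, 6.59 and 6.64 in shRNA 1 livers and at 6.80, 6.68 and 7.0 in shRNA 2 livers. Of its controls 3 lay close together and replicate 4 far above them. The difference was -0.01 (95% interval -0.30 to 0.27, adjusted p = 0.987), and it was 0.02 after median centring. Col3a1, the chain of type III collagen that mixes with type I in fibres, was at 8.06, 7.82, 8.11 and 8.72 in controls, at 8.37, 8.18 and 8.04 in shRNA 1 livers and at 8.21, 7.98 and 8.50 in shRNA 2 livers. Control replicate 4 was again the highest of all and shRNA 2 replicate 3 came next. The difference was 0.04 (95% interval -0.32 to 0.39, adjusted p = 0.974), and 0.22 without control replicate 4. The within-group SD of Col3a1, 0.30, was at the 92.6th percentile of all genes tested, and that of Col1a1, 0.25, at the 84.3rd.

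The type V chains, which start and thin the fibres, varied less. Col5a1 was at 6.29 ± 0.16 (SD, n = 4) in controls, 6.41 ± 0.12 (n = 3) in shRNA 1 livers and 6.32 ± 0.13 (n = 3) in shRNA 2 livers, a difference of 0.08 (adjusted p = 0.871). Col5a2 was at 5.13 ± 0.07, 5.14 ± 0.12 and 5.11 ± 0.16 in the same order, a difference of 0.00 with a 95% interval of -0.19 to 0.19. Of the other tested fibrillar genes, Col5a3 was at -0.14, Col27a1 at -0.14, Col11a2 at -0.13, Col24a1 at -0.06 and the cartilage collagen Col2a1 at 0.06. The median over the 10 tested fibrillar genes was -0.04, with 6 lower and 4 higher means and adjusted p-values of at least 0.743.

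**Figure D2:**
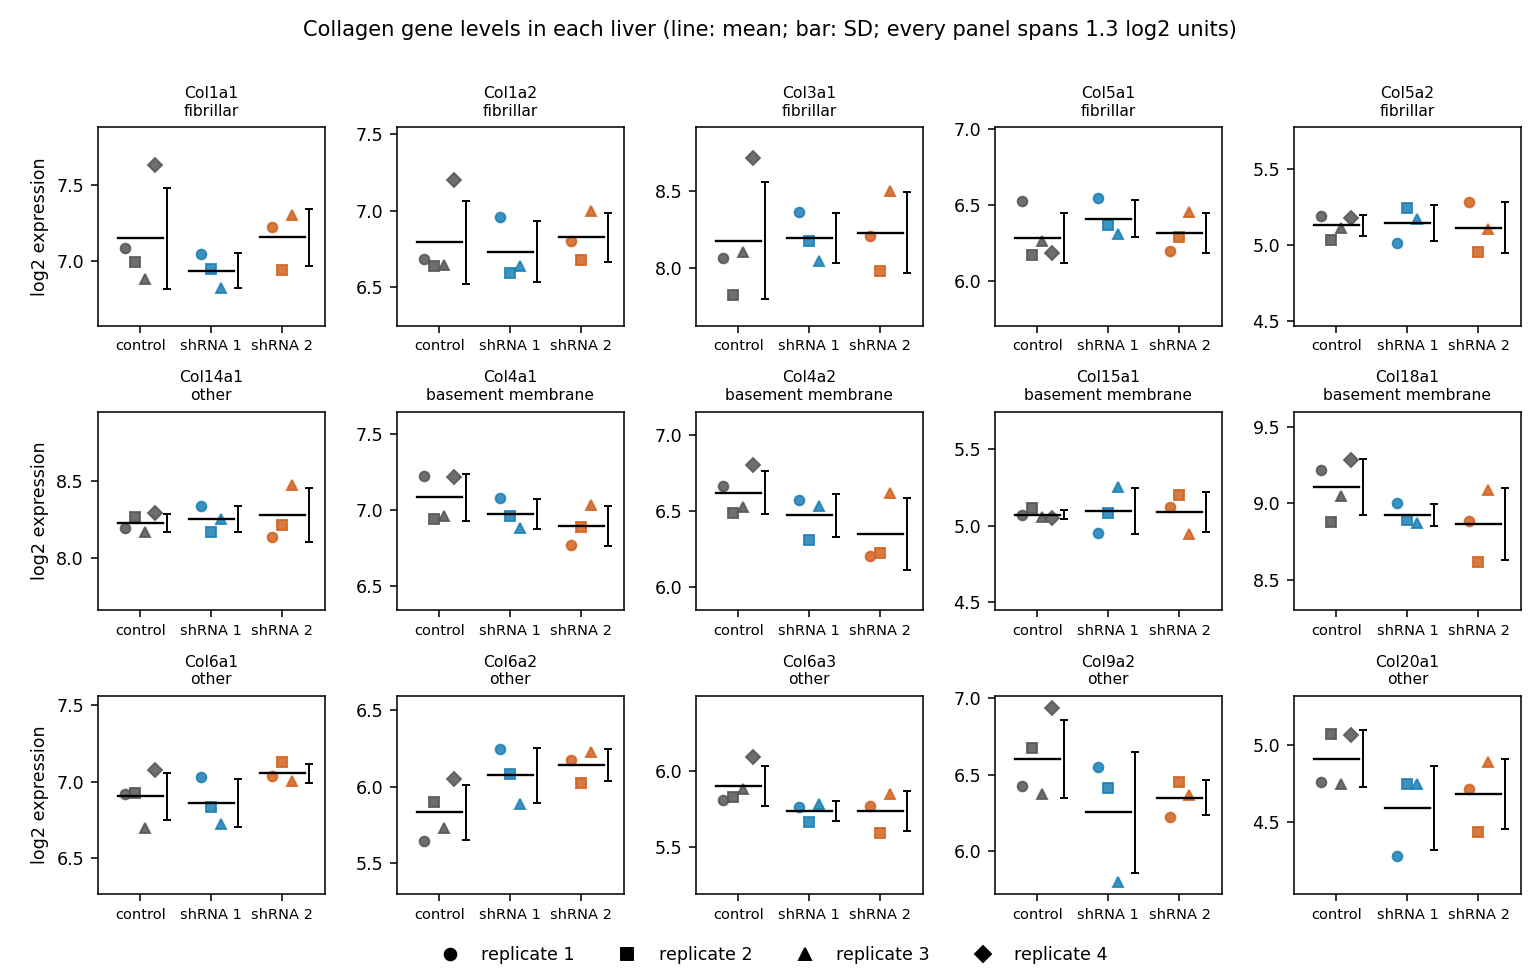
Log2 expression of 15 collagen genes (y axis) in each liver by group (x axis); each symbol is a replicate, the line is the group mean and the bar beside it the SD. Every panel spans the same 1.3 log2 units, and for each gene the adapted and control livers overlap.

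Among basement membrane collagens the type IV chains of ordinary basement membranes were slightly lower in the mean in adapted livers, without passing the test. Col4a1 was at 7.22, 6.94, 6.96 and 7.21 in controls, at 7.08, 6.96 and 6.89 in shRNA 1 livers and at 6.77, 6.89 and 7.03 in shRNA 2 livers. Below every control lay 3 of the 6 adapted livers. The difference was -0.15 (standard error 0.09, 95% interval -0.35 to 0.05, adjusted p = 0.708). Col4a2, its partner in the same molecule, was at 6.66, 6.49, 6.53 and 6.80 in controls, at 6.57, 6.31 and 6.53 in shRNA 1 livers and at 6.20, 6.22 and 6.62 in shRNA 2 livers. Here too 3 of 6 adapted livers were below every control. The difference was -0.21 (standard error 0.11, 95% interval -0.44 to 0.02, adjusted p = 0.626), and an exact two-sided permutation test of 6 against 4 samples gave p = 0.095. The smallest p that test can give is 0.0048.

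Col4a1 and Col4a2 are neighbours on mouse chromosome 8 and are read away from each other. The promoter windows of the pair, from 250 bases before to 50 after the start of each gene, are shown because the levels of these genes ran together across livers. They are RefSeq sequences on GRCm38.p6, at chr8:11312777-11313076 on the minus strand for Col4a1 and chr8:11312555-11312854 on the plus strand for Col4a2. The capitals mark the 78 bases at the end of both windows, which are the same stretch of DNA read from opposite strands.
Col4a1: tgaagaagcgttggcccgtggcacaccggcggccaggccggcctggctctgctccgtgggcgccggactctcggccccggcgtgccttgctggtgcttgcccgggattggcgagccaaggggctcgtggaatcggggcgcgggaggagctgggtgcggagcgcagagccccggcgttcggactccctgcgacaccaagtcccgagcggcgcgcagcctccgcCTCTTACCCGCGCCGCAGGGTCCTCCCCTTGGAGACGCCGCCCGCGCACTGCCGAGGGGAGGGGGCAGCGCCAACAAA
Col4a2: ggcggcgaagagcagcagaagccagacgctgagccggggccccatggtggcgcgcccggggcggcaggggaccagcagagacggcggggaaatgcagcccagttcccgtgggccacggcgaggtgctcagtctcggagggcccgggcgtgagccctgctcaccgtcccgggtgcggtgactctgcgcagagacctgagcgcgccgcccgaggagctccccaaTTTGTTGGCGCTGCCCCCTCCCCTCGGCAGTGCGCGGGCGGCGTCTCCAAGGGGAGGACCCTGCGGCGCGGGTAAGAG

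The other type IV chains, best known from kidney and eye, were low or scattered. Col4a3 was at 4.31, 3.78, 4.00 and 3.83 in controls, at 3.94, 3.87 and 3.76 in shRNA 1 livers and at 3.91, 3.89 and 4.98 in shRNA 2 livers. Its shRNA 2 mean of 4.26 thus rested on replicate 3, and it exceeded the array's median in 2 of 10 livers. Col4a5 was at a difference of 0.02 (95% interval -0.25 to 0.30). Col18a1 was at 9.22, 8.88, 9.05 and 9.29 in controls, at 9.0, 8.89 and 8.87 in shRNA 1 livers and at 8.88, 8.62 and 9.09 in shRNA 2 livers. Its difference was -0.22 (standard error 0.11, 95% interval -0.45 to 0.02, adjusted p = 0.621), with 2 of 6 adapted livers below every control. Col15a1, the related chain of vessel basement membranes, was at 5.07 ± 0.03 (SD, n = 4), 5.09 ± 0.15 (n = 3) and 5.09 ± 0.13 (n = 3), a difference of 0.02. The 6 tested genes of this class had a median of -0.06, with 3 lower and 3 higher means. One of the higher means was that of Col4a3, at 0.08. Its control mean of 3.98 lay at the level filter of 3.98 and its shRNA 1 mean of 3.86 below it. Col4a3 thus passed that filter through the shRNA 2 livers, so its difference is given as a description.

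The type VI chains had estimates on both sides of 0. Col6a2 was at 5.64, 5.90, 5.73 and 6.05 in controls, at 6.25, 6.08 and 5.89 in shRNA 1 livers and at 6.17, 6.02 and 6.22 in shRNA 2 livers. It was above every control in 4 of 6 adapted livers. Its difference of 0.27 (standard error 0.10, 95% interval 0.05 to 0.50, adjusted p = 0.513) had an unadjusted p of 0.021 in limma and 0.038 in the exact permutation test, and it ranked 536th of the 13308 genes by its statistic. Col6a1, its neighbour on chromosome 10 and partner in the type VI molecule, was at 6.92, 6.92, 6.70 and 7.07 in controls, at 7.03, 6.83 and 6.72 in shRNA 1 livers and at 7.03, 7.13 and 7.0 in shRNA 2 livers. The difference was 0.06 (adjusted p = 0.916). Col6a3, the third and largest chain, was at 5.81, 5.83, 5.88 and 6.09 in controls, at 5.76, 5.66 and 5.78 in shRNA 1 livers and at 5.77, 5.59 and 5.85 in shRNA 2 livers. It was below every control in 5 of 6 adapted livers, with a difference of -0.17 (standard error 0.09, adjusted p = 0.631, unadjusted exact permutation p = 0.029). Without control replicate 4 the difference was -0.10. Col6a6 was at -0.01.

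Collagens that sit on fibre surfaces, the FACIT group, had lower means in 5 of 6 tested genes and a median of -0.15, with adjusted p-values of at least 0.602. The exception was Col14a1, made by quiescent stellate cells and portal fibroblasts, at 8.23 ± 0.06 (SD, n = 4), 8.25 ± 0.09 (n = 3) and 8.28 ± 0.18 (n = 3), a difference of 0.03 with a 95% interval of -0.15 to 0.22. Col20a1 was at 4.76, 5.08, 4.75 and 5.07 in controls, at 4.27, 4.75 and 4.75 in shRNA 1 livers and at 4.71, 4.43 and 4.89 in shRNA 2 livers. Below every control were 5 of its 6 adapted values, and the difference was -0.28 (standard error 0.13, adjusted p = 0.602). Col9a2, best known from cartilage, had the largest negative estimate, -0.30 (standard error 0.15, adjusted p = 0.621). Its lowest value, 5.80 in shRNA 1 replicate 3, lay well under the other 9 livers, at 6.23 to 6.94.

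The transmembrane collagens Col13a1 (-0.16), Col17a1 (0.02), Col23a1 (-0.23) and Col25a1 (0.01) had estimates on both sides of 0 in adapted livers. In shRNA 2 livers alone all 4 had lower means than controls (median -0.17), in shRNA 1 livers 2 of 4 did (median 0.01), and none of them passed the test in either line or between the lines (adjusted p of at least 0.709). The short chain Col8a2 was at -0.29 with a wide 95% interval of -0.70 to 0.12, and its partner Col8a1 at -0.01. Col8a2 had means of 4.23 in controls, 3.85 in shRNA 1 livers and 4.03 in shRNA 2 livers, on either side of the level filter of 3.98. Col22a1, of the FACIT group, was at 4.08, 3.95 and 3.97 in the same order, so it passed that filter through the controls. Both are among the lower means counted, and their differences are given as a description. Col7a1, which anchors skin basement membrane, was at -0.02, and its within-group SD of 0.08 was at the 6.95th percentile of genes tested. Over the 18 tested genes of neither main class the median was -0.02, with 13 lower means.

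Each hairpin line was then set against the same 4 controls, which both comparisons share. In shRNA 1 livers 0 of 34 collagen genes passed in limma, as did 0% of all genes tested, and 0 of 34 had an unadjusted p under 0.05, against 7.89% of all genes. The median was -0.08, with 23 of 34 means lower, where 47.6% of all genes tested were lower. It was -0.020 without control replicate 1, -0.051 without control replicate 4 and -0.13 without shRNA 1 replicate 1. The count of lower means was 22 of 34 both after median centring and after quantile normalization. The fibrillar median was -0.05, the basement membrane median -0.12 and that of the other types -0.06. The leading genes were Col20a1 at -0.32 (standard error 0.15, adjusted p = 0.652), Col6a2 at 0.24 (0.12, 0.675) and Col9a2 at -0.35 (0.18, 0.684). All 3 shRNA 1 livers lay below all controls for Col20a1 and Col6a3, 2 of 34 genes, and 8.9% of all genes tested had such groups without overlap. Without shRNA 1 replicate 1 the Col20a1 difference was -0.17 and that of Col6a2 0.15, and without replicate 3 that of Col9a2 was -0.12.

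In shRNA 2 livers 0 of 34 passed, against 0.00751% of all genes tested, and 1 had an unadjusted p under 0.05, against 7.6%. The median was -0.09 with 23 of 34 means lower, where 48.8% of all genes were lower. Without control replicate 1 the median was -0.047, and without shRNA 2 replicate 3 the count was 28 of 33. That count was 20 of 34 both after median centring and after quantile normalization. The class medians were -0.04 for fibrillar, -0.09 for basement membrane and -0.10 for other types. Col6a2 led at 0.31 (standard error 0.12, adjusted p = 0.624), followed by Col4a2 at -0.27 (0.13, 0.670) and Col18a1 at -0.25 (0.13, 0.709). For 0 of 34 collagen genes did all 3 shRNA 2 livers lie apart from all controls, as they did for 7.29% of all genes tested. Without shRNA 2 replicate 2 the Col18a1 difference was -0.12.

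The lines were also compared with each other, a comparison in which line and cohort cannot be told apart. Here 0 of 34 collagen genes passed, against 0.015% of all genes, and 0 had an unadjusted p under 0.05, against 6.02%. The median of shRNA 1 minus shRNA 2 was 0.01, with 16 of 34 means below 0, where 48.9% of all genes were. Leaving out single livers took this median from -0.033 to 0.021, so its sign turned. The count below 0 was 11 of 33 without shRNA 2 replicate 3, 19 of 33 without shRNA 1 replicate 1 and 19 of 34 without shRNA 2 replicate 2. Col17a1, a transmembrane collagen of epithelia, was at 0.25 (standard error 0.13, adjusted p = 0.879), Col2a1 at 0.25 (0.14, 0.887) and Col6a1 at -0.19 (0.12, 0.903). Col2a1 was at 0.15 without shRNA 1 replicate 1 and likewise without shRNA 2 replicate 2. Col6a1 was at -0.12 without shRNA 1 replicate 3 and at -0.063 with the mean of its clusters. The lines overlapped for all 34, and 11.3% of all genes tested had lines without overlap. The interval lay within 0.5 of 0 for 25 of 34 collagen genes, and for 75.4% of all genes tested.

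Chains that assemble into a molecule, or in the case of types I and III into a shared fibre, were compared across the 10 livers in 9 pairs. Of these, 3 passed an adjusted p of 0.05 for Pearson's r over levels. Col1a1 and Col1a2 correlated at r = 0.89 (permutation p = 0.0020, adjusted 0.011) and rho = 0.78 (permutation p = 0.011, adjusted 0.048). Without control replicate 4 and shRNA 2 replicate 3, the 2 livers farthest from the median of Col1a1, r was 0.56. Col1a1 and Col3a1 correlated at r = 0.82 (permutation p = 0.0043, adjusted 0.013) and rho = 0.71 (permutation p = 0.027, adjusted 0.080), but at r = 0.32 without the same 2 livers, so that this relation in levels rested on them. Col4a1 and Col4a2 correlated at r = 0.84 (permutation p = 0.0024, adjusted 0.011) and rho = 0.82 (permutation p = 0.0060, adjusted 0.048), and at r = 0.74 without controls 1 and 4.

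The same pairs were examined as deviations from the group means, which removes differences between groups. There Col1a1 and Col1a2 had r = 0.91, Col1a1 and Col3a1 r = 0.90 and Col4a1 and Col4a2 r = 0.76, with adjusted permutation p-values of 0.0014, 0.0026 and 0.045 over all 10 samples. Without control replicate 4 and shRNA 2 replicate 3 these r were 0.73, 0.70 and 0.61. Without the 2 livers farthest from the median of the first gene's deviations they were 0.82, 0.93 and 0.71. An exact permutation within groups, chosen after seeing the data, respects that deviations sum to 0 in each group. This exact permutation test gave p = 0.0069, 0.012 and 0.041, and 0.052, 0.052 and 0.122 after adjustment over the 9 pairs, so that 0 of 9 passed. Among all 88544778 pairs of genes tested, 0.144% had an r at or above that of Col1a1 and Col1a2 and 2.12% at or above that of Col4a1 and Col4a2. For the other 6 pairs no adjusted p reached 0.05. Col6a1 and Col6a2 had r = 0.58 in levels (adjusted p = 0.184 by permutation), Col6a2 and Col6a3 r = -0.13, Col5a1 and Col5a2 r = -0.12 and Col8a1 and Col8a2 r = -0.21. The pairs Col4a3 with Col4a4 (r = 0.36) and Col4a5 with Col4a6 (r = -0.08) each include a gene under the level filter.

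**Figure D3:**
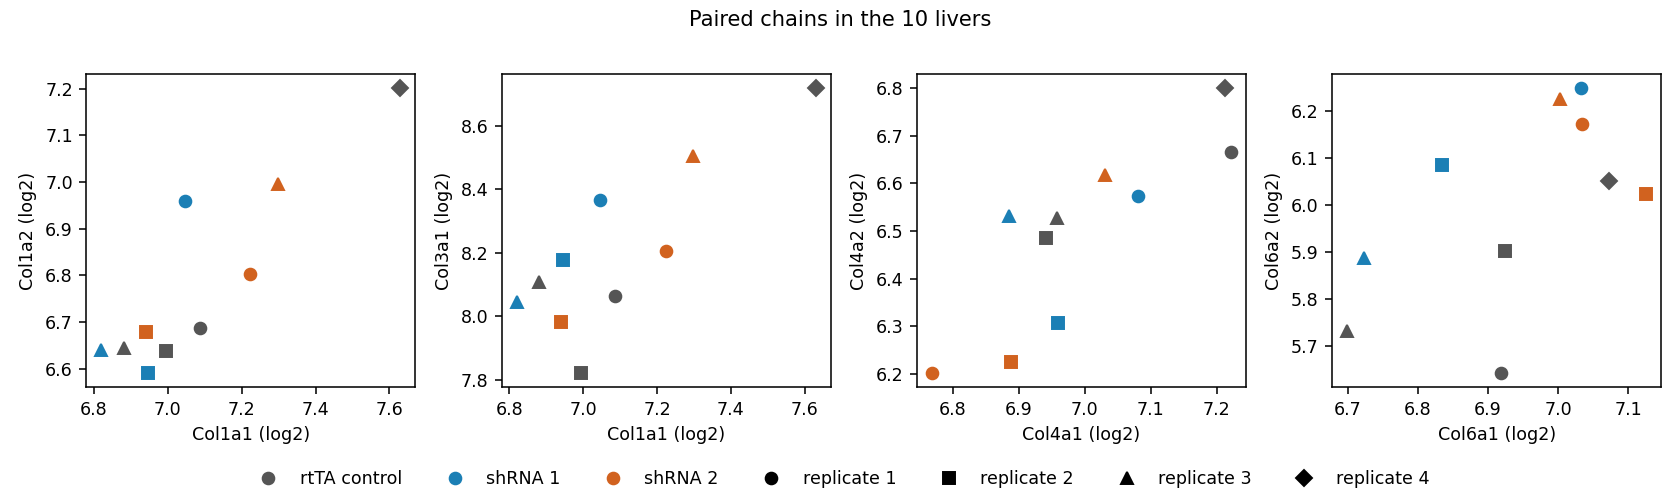
Log2 expression of the partner chain (y axes) against that of Col1a1, Col1a1, Col4a1 and Col6a1 (x axes) in the 10 livers, by group and replicate. Control replicate 4 is at the upper right for type I and III chains, and Col6a1 and Col6a2 scatter more widely than the type IV pair.

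Over all 561 pairs of tested collagen genes the median r of deviations from group means was 0.23, with 69.7% of pairs above 0, beside 0.01 and 50.6% over all pairs of genes tested. The highest value was that of Col1a2 with Col3a1, r = 0.93. Chains of different classes also ran together: Col3a1 with Col6a3 had r = 0.85 and Col3a1 with Col18a1 r = 0.84. Col15a1 ran the other way, at r = -0.76 with Col2a1, and Col17a1 had r = -0.82 with Col6a3. These pairs were picked for their values among 561, share the same 10 arrays and are a description.

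**Figure D4:**
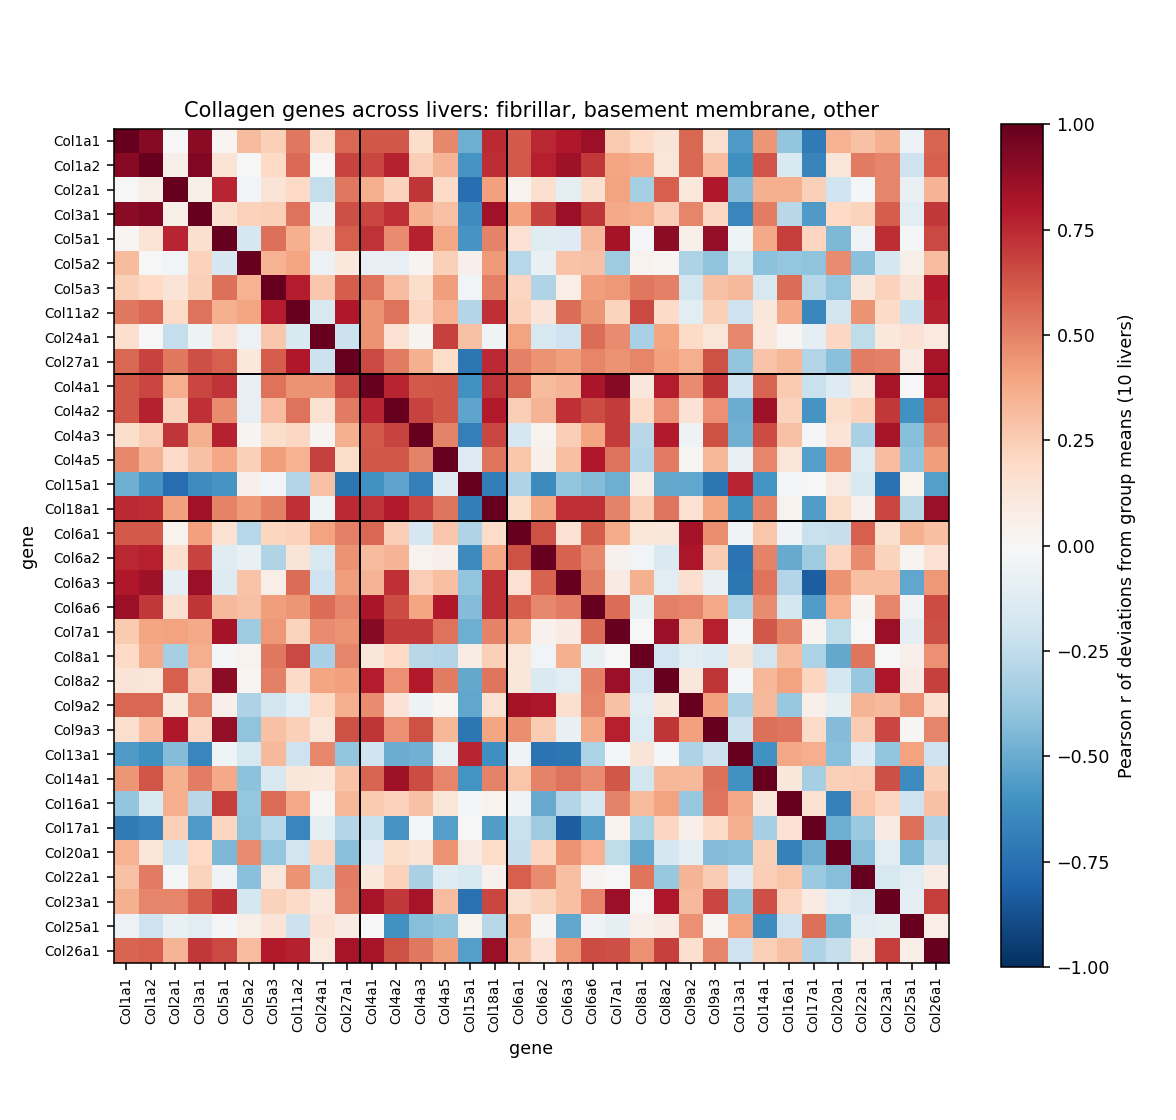
Pearson's r of deviations from group means over 10 livers for every pair of the 34 tested collagen genes, with lines between fibrillar, basement membrane and other types. Col1a1, Col1a2 and Col3a1 form a block with r between 0.90 and 0.93, and Col15a1 is mostly blue, for values below 0. Without control replicate 4 and shRNA 2 replicate 3, Col1a1 had r = 0.73 with Col1a2 and 0.70 with Col3a1.

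The CCAAT box, a known element of type I collagen promoters that binds NF-Y, was looked for in the RefSeq promoter windows, as CCAAT or, on the other strand, ATTGG, motifs that can overlap in the letters AT. Of the 38 windows of 35 collagen genes 13 held one (34.2%), against 37.4% of all 32851 windows in the table. The window of Col1a2, at chr6:4505368-4505667 on the plus strand, is shown because this gene ran with Col1a1 and Col3a1; capitals mark its 2 matches. The window of Col3a1 held none. A match is only these letters in this window.
Col1a2: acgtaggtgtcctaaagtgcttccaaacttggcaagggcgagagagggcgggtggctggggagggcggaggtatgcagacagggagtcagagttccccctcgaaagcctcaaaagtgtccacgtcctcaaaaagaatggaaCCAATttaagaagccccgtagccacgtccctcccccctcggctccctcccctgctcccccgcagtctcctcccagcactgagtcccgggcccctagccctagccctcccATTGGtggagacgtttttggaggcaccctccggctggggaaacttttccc

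Genes that make, join and break down collagen were counted from lists, and none of their members passed in limma in adapted against control livers. Among all 13308 genes tested 6922 had higher means, which is the share to set beside the counts of higher means below. Counts under other scalings are not given for these lists. Of 16 tested genes for folding and modifying the chains, 9 had higher means and the median was 0.01. P3h2, a prolyl 3-hydroxylase of type IV collagen, was at 0.22 (standard error 0.09, adjusted p = 0.569) and Crtap, a partner of the prolyl 3-hydroxylase of fibrillar chains, at 0.20 (0.12, 0.700). Of 8 genes of propeptide processing and cross-linking 4 were higher, with a median of -0.0013. Loxl3, a lysyl oxidase relative, was at -0.07 and the transglutaminase Tgm2 at -0.05. The type I cross-linker Lox was below the level filter.

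In the list of collagen breakdown and its inhibitors 6 of 9 tested genes had higher means, with a median of 0.07. As the list holds genes of opposite action, this count gives no direction for breakdown. Timp3, a matrix-bound inhibitor of metalloproteinases, was at 0.16 (standard error 0.09, adjusted p = 0.677) and the lysosomal protease Ctsb at 0.11 (0.07, 0.739). The collagenases Mmp8 and Mmp13 and the inhibitor Timp1 were below the level filter. Collagen receptors had 5 of 7 higher means and a median of 0.11, led by the integrin chain Itga1 at 0.12 (0.07, 0.649). The inhibitory receptor Lair1 was at 0.16 (0.12, 0.775), a mean of -0.05 in shRNA 1 and 0.37 in shRNA 2 livers, with a difference between the lines of -0.42 (limma unadjusted p = 0.018, adjusted p = 0.727).

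Among fibril partners 8 of 12 means were higher, with a median of 0.09. Tnc, the matrix glycoprotein tenascin C, was at 3.51, 3.81, 4.04 and 4.06 in controls, at 3.98, 4.42 and 4.70 in shRNA 1 livers and at 4.27, 4.45 and 4.34 in shRNA 2 livers, a difference of 0.50 (standard error 0.14, adjusted p = 0.427). Its control mean of 3.86 lay below the level filter, which it passed through the hairpin livers, at means of 4.37 and 4.35, so its difference is given as a description. Dcn, the fibril-binding proteoglycan decorin, was at 0.16 (0.08, 0.618). Basement membrane partners had 12 of 15 higher means and a median of 0.06, and the tested basement membrane collagens had 3 of 6 higher, Col4a3 among them. Nid1, which links laminin to type IV collagen, was at 0.23 (0.10, 0.577). The laminin chain Lama3 was at 5.67, 5.72, 5.93 and 5.62 in controls, at 5.20, 5.47 and 5.25 in shRNA 1 livers and at 5.37, 5.62 and 5.16 in shRNA 2 livers, a difference of -0.39 (0.11, 0.369). In the TGF-beta list 11 of 17 means were higher, with a median of 0.03, led by the TGF-beta-induced matrix protein Tgfbi at 0.21 (0.08, 0.514) and the co-receptor Tgfbr3 at 0.21 (0.08, 0.536).

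Markers of the cells that could carry collagen RNA are given as list means per liver. The control mean of each list is 0 by definition. Myofibroblast and smooth muscle markers (4 tested of 6 measured) were highest in shRNA 2 replicate 3, at 0.27, and control replicate 4, at 0.21, and their summed log2 level ran from 25.3 to 26.7 in controls, 25.5 to 26.6 in shRNA 1 and 25.5 to 26.9 in shRNA 2 livers. Acta2, the smooth muscle actin that defines them, was at 7.88 in control replicate 4 and 6.91 to 7.60 in the other 9 livers. Portal fibroblast markers (6 of 7) stood at 0.25 in control replicate 4, with sums of 29.9 to 32.4, 29.9 to 31.8 and 29.9 to 31.6 in the same order. Quiescent stellate markers (11 of 11) stood at 0.24 in shRNA 2 replicate 3 and at -0.04 to 0.11 in the other 9 livers, with sums of 78.6 to 79.1, 78.4 to 80.0 and 78.4 to 81.4. Control replicate 4 and shRNA 2 replicate 3 are also the 2 livers with the highest Col1a1, Col1a2 and Col3a1, and the part of these cells in those values was not tested. In shRNA 1 replicate 3 the myofibroblast list was at 0.19. Col1a1, at 6.82, was the lowest of all livers there, and Col1a2, at 6.64, and Col3a1, at 8.04, were not. How these values relate to the markers was not tested. Sinusoidal endothelium markers (8 tested) stood at -0.04 to 0.07 in controls, 0.09 to 0.16 in shRNA 1 and -0.05 to 0.08 in shRNA 2 livers. Cholangiocyte markers (4 tested of 6) stood at -0.05 to 0.05, -0.28 to -0.07 and -0.09 to 0.0025 in the same order. In both lists the shRNA 1 livers lay apart from the controls. Among single genes tested 8.9% did so, and no such share was computed for list means. In shRNA 1 against control livers the 4 cholangiocyte genes ran from -0.58 to 0.16 and the 8 sinusoidal ones from -0.04 to 0.30. A change in the share of these cells was not tested. Mesothelium, Kupffer cell and hepatocyte lists overlapped with controls in both lines. These lists had 0 members past the test, against 0.00751% of all genes tested in adapted against control livers.

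The mean of the 34 tested collagen genes was highest in control replicates 4 (0.10) and 1 (0.08), the 2 arrays with the highest medians, and lay between -0.14 and 0.03 in the other 8 livers. The part of the array medians in the lower collagen means of adapted livers was not tested beyond the scaling counts given above.

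**Figure D5:**
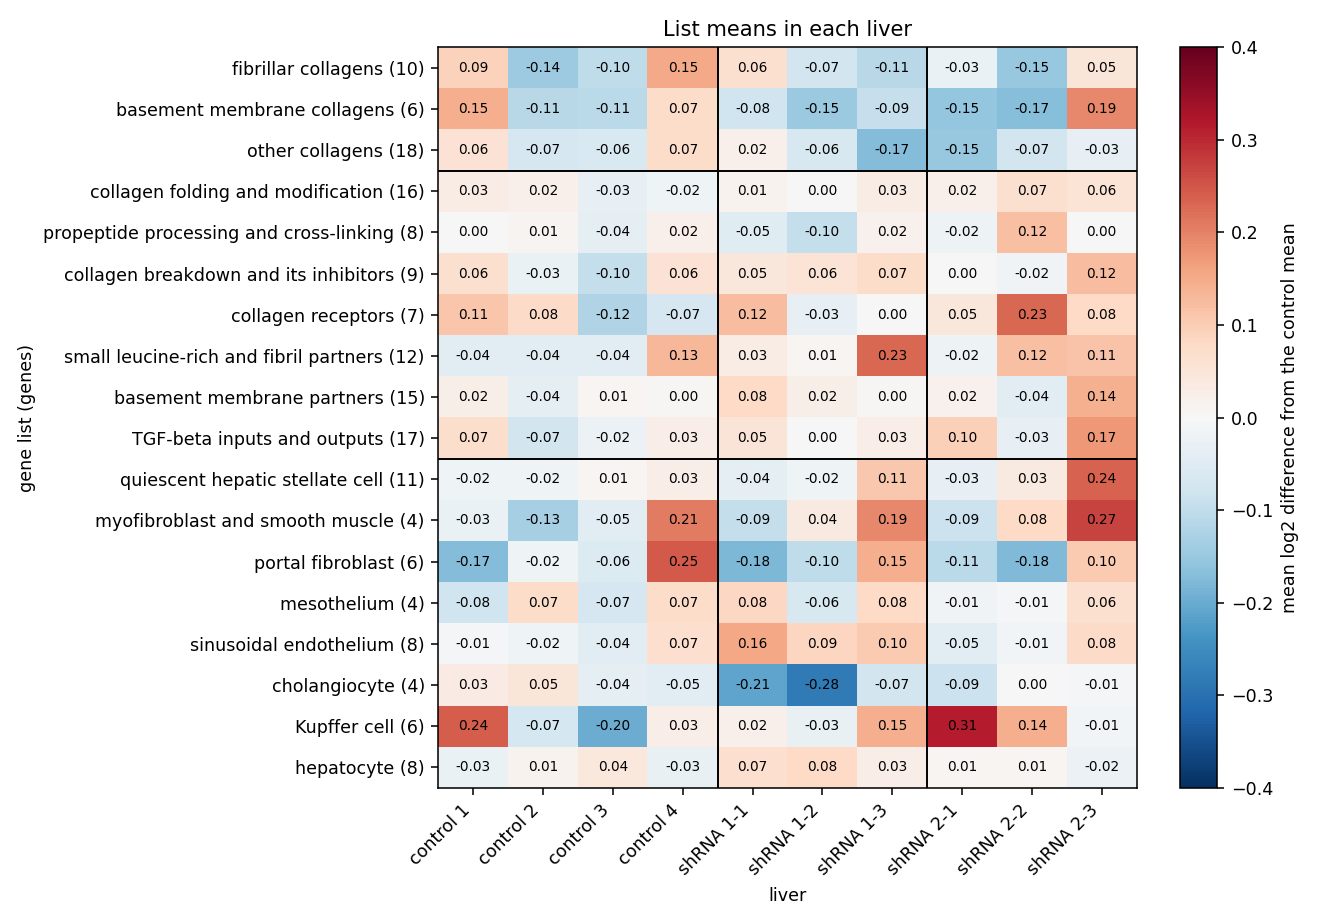
Mean log2 difference from the control mean for each gene list (rows, number of genes in brackets) in each of the 10 livers (columns); colours run from -0.4 to 0.4. Control replicate 4 has the highest value of the fibrillar collagen row (0.15) and of the portal fibroblast row (0.25), and shRNA 2 replicate 3 that of the myofibroblast row (0.27).

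For 3 genes, Col1a2, Col5a1 and Col6a1, the array holds a further cluster of the same symbol. These lay at log2 3.45, 3.81 and 3.73 in the mean, below the kept clusters at 6.78, 6.33 and 6.94, and correlated with them at r = 0.14, 0.48 and -0.08 over the 10 livers. Their differences between adapted and control livers were 0.17, -0.14 and 0.06, where the kept clusters had -0.01, 0.08 and 0.06. A cluster that carries 4 symbols, Col6a1 among them, lay at 6.89, with r = -0.02 to the kept cluster and a difference of -0.07. The values above are those of the kept cluster unless the mean of clusters is named.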

How the data were processed

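Liver RNA was measured on an Affymetrix mouse gene array, 1 array per sample. The authors deposited 1 log2 value per transcript cluster (a set of probes for a gene) and array, made with Affymetrix Expression Console per the submitters' processing notes. Its version, its normalization and the build were not given in the sources used here. That the scale is log2 was inferred from the range of the deposited values, and they were not normalized again. Of 41345 clusters, 23521 had 1 gene symbol, 1814 several and 16010 none in the platform annotation. Each gene was represented by its cluster of highest mean, and genes at or above the 40th percentile of mean level were tested (13308 of 22180).

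One limma fit over 10 arrays and 3 groups (lmFit, contrasts.fit, eBayes; limma 3.58.1, R 4.3.3) gave 4 comparisons, two-sided, with Benjamini-Hochberg adjustment over all genes tested. The fit was tested on simulated data. The exact permutation test enumerated all 210 splits into 6 and 4 samples, and correlations were permuted 100000 times. Replicate numbers were not used to pair the samples, since the labels do not say that a number marks a shared litter, day or animal. Same-numbered samples of different groups correlated at -0.25 to 0.27 in their deviations, and differently numbered ones at -0.28 to 0.27. With so few samples these values cannot exclude a pairing. Always named were 13 chains known from liver matrix, then the 3 collagen genes with the largest absolute statistic per comparison, any past the threshold, and of each pathway list the 2 with the largest statistic in adapted against control. Further genes (such as Col4a3, Col5a3, Col8a2 and the marker Acta2) were named after their values were seen. Members and lists were chosen with earlier results of these data known. Array number limits the precision.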

Additional observations from a re-analysis of the deposited data

Results flagged for a closer look

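Of 44 collagen genes, 2 had a control value far from the other 3 by Dixon's ratio of gap to range at the 95% level, which chance exceeds in about 1 of 20 such groups. For Col1a2 it was control replicate 4 (ratio 0.91), at 7.20 against 6.64 to 6.69. For Col4a4, which lay below the level filter, it was control replicate 3 (ratio 0.89), at 3.68.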

How the results depend on the processing

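The count of 0 collagen genes past an adjusted p of 0.05 held in all 4 comparisons under every alternative fit that was run, and at an adjusted p of 0.1. At an unadjusted p of 0.05 the count was 1 in adapted livers and 1 in shRNA 2 livers. The median difference of adapted livers was -0.02, and -0.14 with the level filter at the 60th percentile, which left 15 collagen genes; it was 0.0073 with median centring, which raised the median of all genes tested from 0.0058 to 0.037, and leaving out single samples gave -0.11 to -0.0066. Of 9 chain pairs 3 passed, and 0 with exact permutation within groups, a setting chosen after seeing the data.

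Signs of small differences in adapted livers moved. With the replicate number as a block, which leaves control replicate 4 without weight, 0 collagen genes passed, Col1a1 was at 0.059 and Col1a2 at 0.12; no other call changed under the block. Not every sample correlated best with its own number. Without control replicate 4 and shRNA 2 replicate 3 together Col1a1 was at 0.022 and Col1a2 at 0.079. Col1a2 was also at 0.017 with median centring, 0.010 with array weights and 0.078 with the mean of a gene's clusters, where Col5a1 was at -0.032. Leaving out single samples turned Col1a1 (-0.19 to 0.059), Col1a2 (-0.072 to 0.12), Col3a1 (-0.083 to 0.22), Col5a2 (-0.042 to 0.040), Col6a1 (-0.013 to 0.11), Col14a1 (-0.015 to 0.069) and Col15a1 (-0.019 to 0.056). The cause was not tested.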
